A study of Mus musculus with 18 samples.

Results

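The genes described here make, carry and break down prostaglandins: *Hpgd*, *Ptgs1*, *Ptgs2*, *Ptges*, *Ptges2*, *Ptges3*, *Ptgds*, *Ptgr1* and *Slco2a1*. They were selected on the signal of *Hpgd*, which was much lower with the DOT1L inhibitor SGC0946 in cultured cerebellar granule neurons, so that values of this contrast are given as a description, without a test. Of the 9 genes, 8 were measured by a transcript cluster that carries their symbol alone, among 22180 genes measured in this way. *Ptgs1* was not analysed here. Each gene had 1 such cluster. For *Ptges3* a further 2 clusters are shared with the near-identical pseudogene *Ptges3-ps* and were not used, and its reading is uncertain to the extent that the copy is detected by its probes.

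The signals came from Affymetrix Mouse Gene 2.0 ST arrays, on the log2 scale, in 3 experiments. The first compared whole cerebella of mice at postnatal day 3 (P3), with 3 conditional knockouts (cKO, *Dot1l* f/f with *Atoh1*-Cre) and 3 control animals with floxed *Dot1l* but no Cre, all on a C57BL6/J background. In cKO mice DOT1L, the histone H3 lysine 79 methyltransferase, is lost from the *Atoh1* lineage, mainly granule cells, and cells outside it keep the gene. The labels of 1 control animal disagree on whether it carried 2 floxed alleles or 1. The second experiment used cerebellar granule neuron progenitors (CGNP) of NMRI mice at P7, treated for 4 h at 1 day in vitro with SGC0946 (n = 3) or its solvent DMSO (n = 3). These 3 cultures per treatment came from 2 mice, namely mouse 29, mouse 30 and a mixture of both, so that they are not 3 independent animals. In the study's immunoblots, 4 h of SGC0946 did not lower methylation of histone H3 lysine 79 in CGNP, whereas longer treatment did. In its ChIP-seq of the dimethylated form, the genome-wide mean appeared lower after 4 h. Few single regions were called different at that time, and more of these gained the mark than lost it. A loss of DOT1L activity at this time is thus not settled. The third used cerebellar granule neurons (CGN) of the same strain, differentiated in vitro and treated for 44 h with SGC0946 (n = 2, arrays HB4 and HB6) or DMSO (n = 2, arrays HB1 and HB3). The inhibitor dose stands as 5 mM in the labels, whereas the study's methods give it in micromolar units. By the labels the CGN with SGC0946 had been 5 and 7 days in vitro and those with DMSO 2 and 4 days, and HB6 came from a P9 animal where the other 3 came from P7 animals. These days rise by 1 from array to array, and they disagree with the single 44 h schedule that the treatment protocol and the study's methods give for all CGN, so that they may be errors of the labels. If they hold, time in culture, age and inhibitor cannot be told apart in CGN. A further 2 CGN arrays carry contradictory treatment labels and enter no comparison.

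Prostaglandins are lipid mediators that act close to where they are made. Phospholipases release arachidonate from membranes, the cyclooxygenases (*Ptgs1*, *Ptgs2*) turn it into prostaglandin H2, and terminal synthases such as *Ptges* and *Ptgds* make prostaglandin E2 and prostaglandin D2 from it. The carrier encoded by *Slco2a1* takes prostaglandins up into cells, where 15-hydroxyprostaglandin dehydrogenase (*Hpgd*) inactivates them by oxidation and *Ptgr1* reduces the product further. In brain, cyclooxygenase 2 is known as an activity-regulated enzyme of neurons, and lipocalin-type prostaglandin D synthase (*Ptgds*) as a product of meninges, choroid plexus and oligodendrocytes.

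The 250 bases that precede the annotated start of *Hpgd* are shown because this is the gene whose signal set the choice of the others. They lie at chr8:56294302-56294551 on the plus strand of GRCm38.p6 (RefSeq), and the capitals mark the only match to the motifs searched.
Hpgd promoter: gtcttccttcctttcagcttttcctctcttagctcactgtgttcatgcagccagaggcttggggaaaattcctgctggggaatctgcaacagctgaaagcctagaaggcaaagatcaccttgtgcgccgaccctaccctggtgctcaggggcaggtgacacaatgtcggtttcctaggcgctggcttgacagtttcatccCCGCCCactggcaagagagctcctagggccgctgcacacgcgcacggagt
The core promoter element sought was written TATAAA. The binding element of Sp1-type factors, called GC box, was written GGGCGG. The upstream element bound by NF-Y was written CCAAT. The palindromic E-box element was written CACGTG. Each was sought on both strands, and the elements found did not overlap. The match is a GC box on the minus strand, 50 to 45 bases before the start. In the 250-base window a GC box occurred in 32.75% of 32841 RefSeq promoters, the core promoter element in 12.37%, the CCAAT element in 33.86% and an E-box in 6.02%. All 9 genes had a promoter in the table, and 6 of them held a GC box, 1 (*Slco2a1*) the core promoter element, 1 (*Ptgr1*) the CCAAT element and 1 (*Ptges2*) an E-box. The *Hpgd* window had a GC content of 56.8% and 9 CpG, or 0.45 of the number that its base composition would give. This ratio was 0.37 in the median promoter, 0.10 for *Ptgds* and 1.16 for *Ptges3*, the lowest and highest of the 9. The arrays do not bear on these sequence features.

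Facts of the series as a whole that touch the results below were as follows. The median signal of all clusters lay between 4.98 and 5.00 on the cerebellum arrays, 4.73 and 4.80 on the CGNP arrays, and 4.64 and 4.70 on the CGN arrays. The experiments thus appear to have been normalized apart, although no label says so, which limits levels set side by side across them. *Dot1l* itself read 9.24, 9.43 and 9.01 in cKO, against 9.05, 9.13 and 9.05 in control cerebella. Only exon 2 is removed and the cluster sums probes of the whole transcript, so this reading does not check the genotype labels, which are used here as given. In CGN *Dot1l* read 8.25 and 8.06 with SGC0946, against 8.72 and 8.54 with DMSO. The granule neuron list (15 of 15 markers measured) averaged 8.40 to 8.87 over all 16 arrays compared. The endothelial list (12 of 12) averaged 6.77 to 7.23 in cerebella but only 4.35 to 4.73 in the cultures, below the median of all clusters on each culture array. In whole cerebella fewer cells of a type and less RNA per cell cannot be told apart.

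*Hpgd* was the prostaglandin gene with the clearest difference in CGN. Its log2 signal was 6.26 (HB4) and 6.66 (HB6) in CGN with SGC0946, against 8.28 (HB1) and 7.96 (HB3) in CGN with DMSO. Both inhibitor arrays lay below both DMSO arrays, with a gap of 1.30 between the closest. The change was -1.66 (SE 0.20), which is 3.16-fold lower, and only 2 of 22180 genes had a lower value in this contrast. Leaving out 1 array at a time gave changes between -1.86 and -1.46. Since this difference chose the gene, no test is attached to it.

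No such difference was measured in CGNP or in cerebella. In CGNP the *Hpgd* signal was 8.35, 8.45 and 8.30 with SGC0946, against 8.15, 8.49 and 8.23 with DMSO, and the treatments overlapped. The change was 0.08 (95% interval -0.27 to 0.42; limma, adjusted p = 1). Within the culture of mouse 29 the inhibitor value was lower by 0.04, whereas it was higher by 0.07 in the culture of mouse 30 and by 0.20 in the mixed culture. In cerebella *Hpgd* read 6.30, 6.86 and 6.95 in cKO, against 6.67, 6.86 and 6.88 in control. The change was -0.10 (95% interval -0.54 to 0.35; limma, adjusted p = 0.93), and without the lowest array, cKO replicate 1, it turned to 0.10. The differences between these responses and that in CGN were not tested, because the CGN contrast chose the gene.

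By group mean, *Hpgd* ran from low to high in the order CGN with SGC0946 (6.46), cKO cerebella (6.71), control cerebella (6.80), CGN with DMSO (8.12), CGNP with DMSO (8.29) and CGNP with SGC0946 (8.37). The ranges of neighbours in this order overlapped, with 1 exception: the lowest CGN array with DMSO (7.96) stood above the highest control cerebellum (6.88). The inhibitor-treated CGN thus read within or just under the range of P3 cerebella, across experiments that appear to have been normalized apart.

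**Figure D1:**
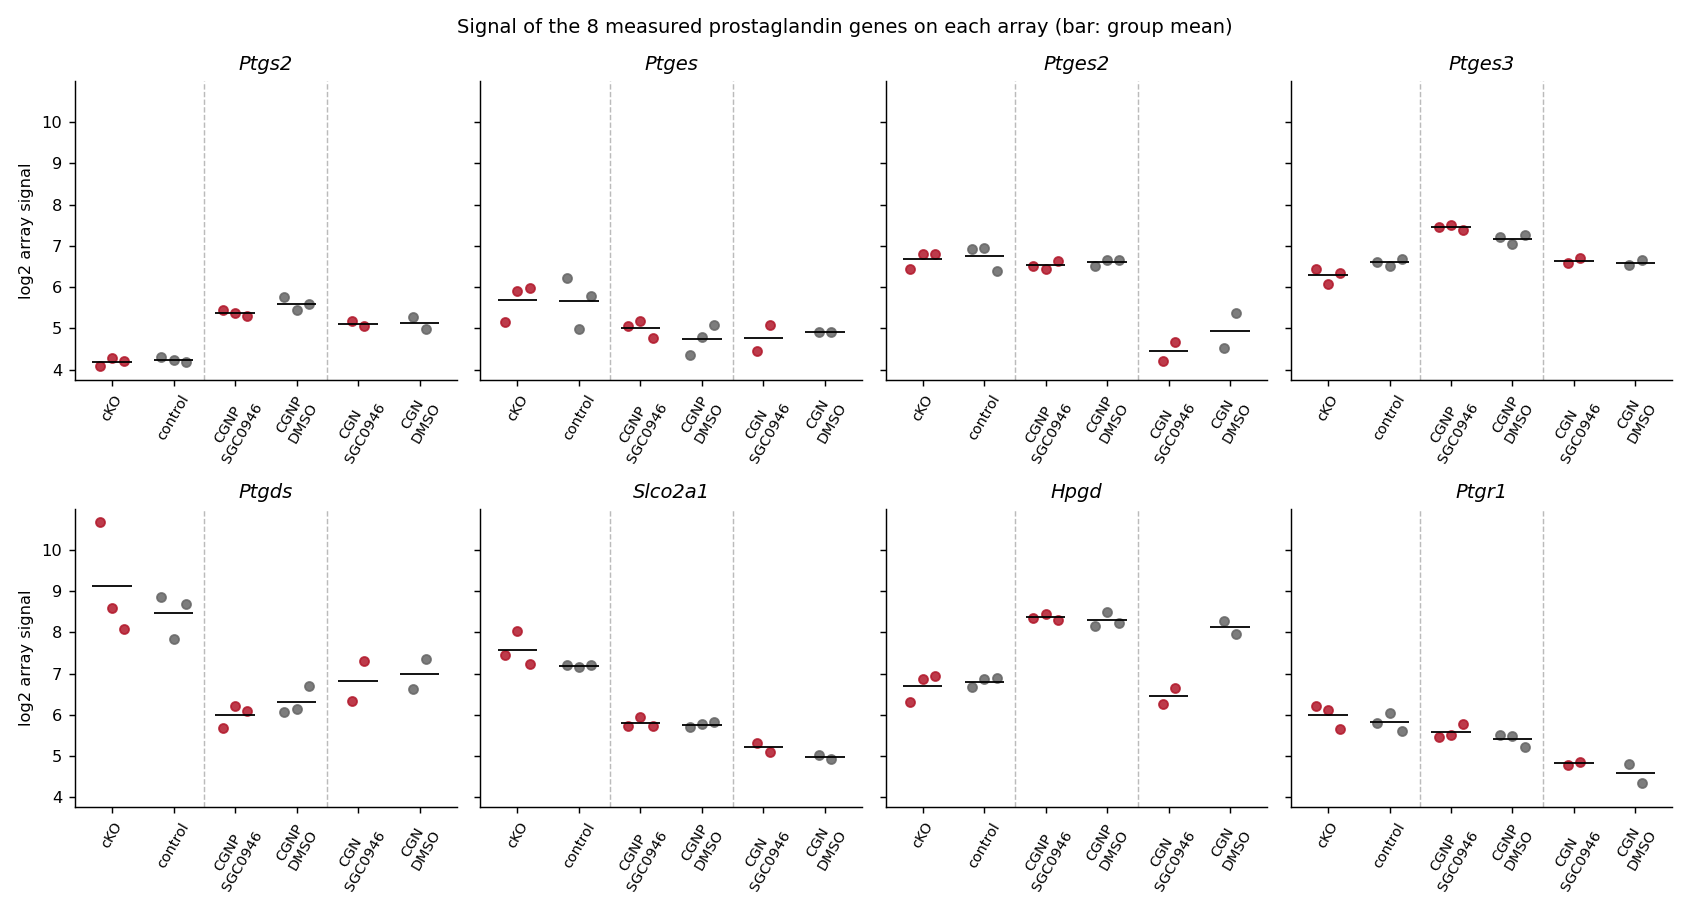
Log2 array signal of the 8 measured prostaglandin genes (vertical axis) on each of the 16 arrays compared, by group (horizontal axis); points are arrays, in replicate order, and bars group means, and dashed lines part the 3 experiments. *Hpgd* stands at 6.26 and 6.66 in CGN with SGC0946, below the CGN arrays with DMSO (8.28 and 7.96), whereas *Ptgds* in cerebella spans 7.84 to 10.66 over both genotypes.

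Markers of some other cell types also differed in this CGN contrast. All 11 measured oligodendrocyte lineage markers of 12 listed had a lower mean with SGC0946 (median -0.45), and 7 of them did not overlap between the treatments, as 34.1% of all genes did not in this contrast of 2 arrays against 2. *Olig2*, a transcription factor of this lineage, differed most (-0.82), followed by its relative *Olig1* (-0.73). The list averaged 6.10 and 6.20 with SGC0946, against 6.53 and 6.67 with DMSO. Of 15 pericyte, smooth muscle and meningeal markers, 13 had a lower mean (median -0.52), led by the matrix proteoglycan *Lum* (-0.94) and the plasma adhesion protein *Vtn* (-0.70). Without overlap 7 of the 15 were lower and 1 was higher, and the highest change was 0.51. This list averaged 5.93 and 6.34 with SGC0946, against 6.38 and 6.65 with DMSO. Of 12 astroglial markers, 8 had a lower mean and 4 a higher one (median -0.20), with changes from -0.90 to 0.92. The granule neuron list averaged 8.40 and 8.60 with SGC0946, against 8.54 and 8.47 with DMSO, and overlapped. By mean, 6 microglial markers were higher and 6 lower (median 0.02), and 7 endothelial markers higher and 5 lower (median 0.01). For granule progenitor markers 7 were higher and 5 lower (median 0.04), and for Purkinje cell markers 4 and 1 (median 0.15). Among choroid plexus and ependyma markers, 6 of 8 had a higher mean, and *Ttr*, the transthyretin of choroid plexus, differed by -1.85 with overlap. Whether these markers, age or the labelled days in vitro had a part in the value of *Hpgd* was not tested.

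**Figure D2:**
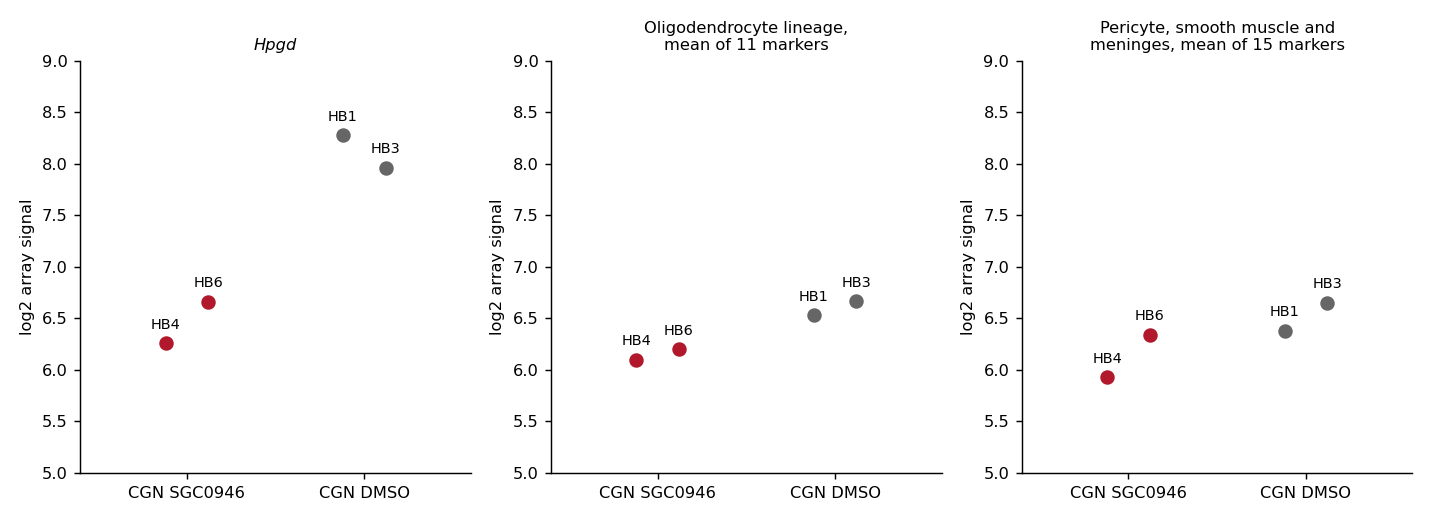
Log2 array signal (vertical axis, the same in every panel) of *Hpgd* and of the mean of 11 oligodendrocyte lineage and 15 pericyte, smooth muscle and meningeal markers on the 4 CGN arrays, by treatment (horizontal axis); each point is an array, named beside it. All 3 are lower on both SGC0946 arrays (HB4, HB6) than on both DMSO arrays (HB1, HB3), with a change of -1.66 for *Hpgd*.

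Among the 8 genes no change passed the test in cKO cerebella or in CGNP. At an adjusted p below 0.05 (limma, Benjamini-Hochberg over all genes) 0 of 8 genes were called in cKO against control, where 0.0225% of all genes were, and 0 of 8 in CGNP, where 0.0316% of all genes were. Before adjustment, at a p of 0.05 or less, the counts were again 0 of 8 in each, beside 8.69% of all genes in cKO and 4.08% in CGNP. Arrays of the compared groups did not overlap for 2 of 8 genes in cKO (*Slco2a1* higher, *Ptges3* lower; 14.0% of all genes), for 2 in CGNP (*Ptges3* higher, *Ptgs2* lower; 9.78%) and for 2 in CGN (*Slco2a1* higher, *Hpgd* lower; 34.1%). With only 2 arrays a side, lack of overlap in CGN is common. A difference of at least 2-fold without overlap was found for *Hpgd* alone among the 8 in CGN, beside 0.325% of all genes, and that is the value that chose it. The 8 genes had a median change of -0.01 in cKO (all genes -0.01), 0.05 in CGNP (0.00) and -0.08 in CGN (-0.01).

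**Figure D3:**
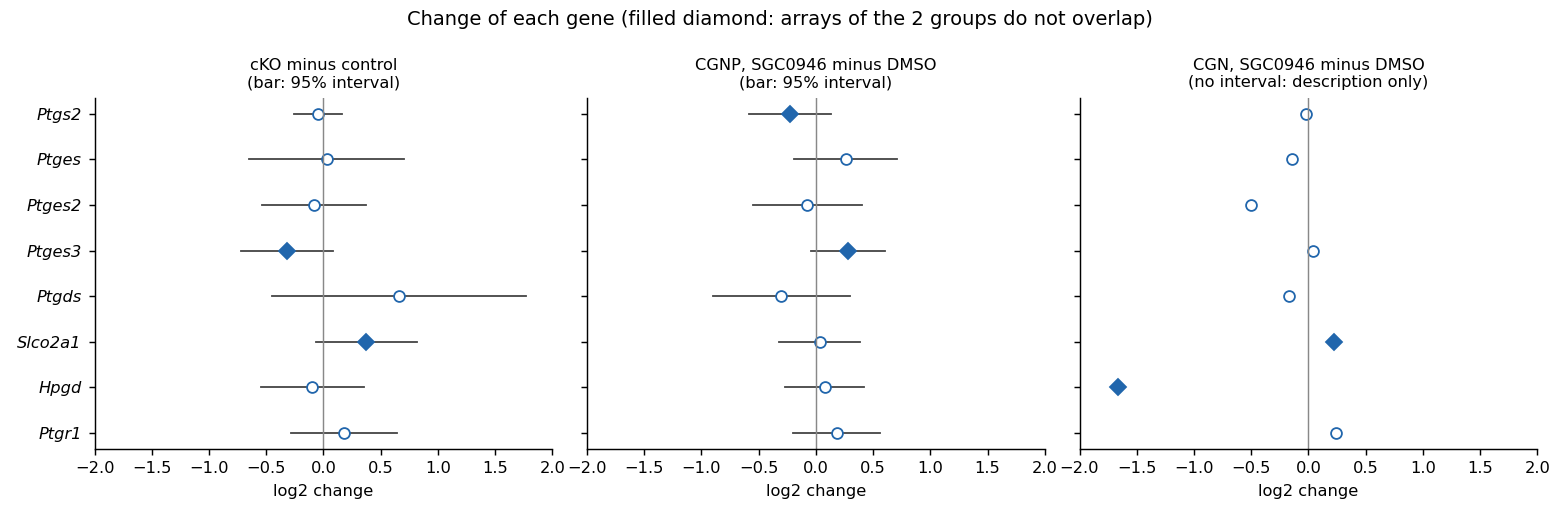
Log2 change (horizontal axis) of the 8 measured genes (vertical axis) in cKO against control cerebella, in CGNP and in CGN with SGC0946 against DMSO. Bars are 95% intervals of the limma fits, drawn for the first 2 comparisons only, and filled diamonds mark genes whose arrays do not overlap between groups; every interval spans 0, and *Hpgd* in CGN (-1.66) is the only point beyond 1 in either direction.

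*Ptgs2*, the inducible cyclooxygenase, was dim in cerebella, at 4.09, 4.29 and 4.20 in cKO, against 4.30, 4.24 and 4.19 in control. These values overlap and lie below the arrays' median signal. In CGNP it read 5.44, 5.38 and 5.30 with SGC0946, against 5.76, 5.46 and 5.59 with DMSO. Every inhibitor array was below every DMSO array, although by only 0.02 between the closest. The inhibitor value was therefore also lower within all 3 cultures (by 0.32, 0.08 and 0.28), which adds no further evidence. The change of -0.23 (95% interval -0.59 to 0.13) did not pass the test (limma, adjusted p = 1). Immediate early genes, to which *Ptgs2* is commonly counted, had a lower mean in 12 of 15 cases in the same contrast (median -0.14), among them *Nr4a1* (-0.44) and *Egr2* (-0.36), and 0 of 15 passed the adjusted test. Their part in the value of *Ptgs2* was not tested. In CGN *Ptgs2* was at 5.18 and 5.06 with SGC0946, against 5.29 and 4.99 with DMSO, a difference of -0.02 with overlap. There 9 of the 15 immediate early genes had a lower mean and 6 a higher one (median -0.12, lowest change -1.33). Without overlap 7 were lower and 1 was higher, beside 34.1% of all genes without overlap. In cerebella 9 of the 15 had a higher mean in cKO and 6 a lower one (median 0.07).

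The 3 genes named as prostaglandin E synthases behaved differently from each other. *Ptges*, the inducible microsomal synthase, varied more within groups than between them. It read 5.16, 5.91 and 5.98 in cKO, against 6.22, 4.98 and 5.77 in control, a change of 0.03 (95% interval -0.65 to 0.71; limma, adjusted p = 0.99). In CGNP its change was 0.26 (-0.19 to 0.71), with culture differences of 0.70 (mixed), 0.39 (mouse 29) and -0.32 (mouse 30), which go in opposite directions. In CGN it was at 4.47 and 5.08 with SGC0946, against 4.91 and 4.92 with DMSO.

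*Ptges2*, a second membrane-associated synthase, gave like values in both genotypes and both CGNP treatments. Its change was -0.08 in cKO (95% interval -0.53 to 0.37) and -0.08 in CGNP (-0.55 to 0.40). It stood out by its low signal in CGN, at 4.21 and 4.68 with SGC0946, against 4.52 and 5.37 with DMSO. The treatments overlapped, with a difference of -0.50 (SE 0.27) that ran from -0.92 (without HB1) to -0.08 (without HB3) when 1 array was left out. All 4 CGN arrays were below all 6 CGNP arrays, of which the lowest read 6.44.

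*Ptges3*, better known as p23, a co-chaperone of HSP90, had differences of opposite sign in the 2 tested comparisons. It read 6.43, 6.07 and 6.35 in cKO, against 6.62, 6.52 and 6.67 in control, with every cKO array below every control array. The change was -0.32 (95% interval -0.72 to 0.08; limma, adjusted p = 0.667). In CGNP it read 7.47, 7.50 and 7.39 with SGC0946, against 7.21, 7.05 and 7.27 with DMSO, with every inhibitor array above every DMSO array. The change was 0.28 (95% interval -0.04 to 0.60; limma, adjusted p = 1). Since the arrays do not overlap, it had to be positive within each culture (0.26, 0.45 and 0.13). Neither change passed the test. The difference between these 2 responses, 0.60 (SE 0.21), was fitted after the values had been seen and did not pass either (limma, adjusted p = 0.641). In CGN the values were 6.58 and 6.69 with SGC0946, against 6.54 and 6.66 with DMSO.

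*Ptgds* had the widest spread of the 8 genes in cerebella. It read 10.66, 8.60 and 8.09 in cKO, against 8.84, 7.84 and 8.68 in control. A single animal, cKO replicate 1, stood far above every other cerebellum, and the other 5 overlapped. The change of 0.66 (95% interval -0.45 to 1.77; limma, adjusted p = 0.763) turned to -0.11 without this animal. On the same array the pericyte, smooth muscle and meningeal list averaged 7.69 (7.74 and 7.32 in the other cKO, 7.35 to 7.53 in control), the choroid plexus and ependyma list 5.58 (5.39 and 6.04, 5.45 to 5.51) and the oligodendrocyte lineage list 7.78 (7.45 and 7.86, 7.30 to 7.44). In each of these 3 lists, which mark the cells known for this enzyme, that array was above every control array. It was also below 1 other cKO array, on which *Ptgds* was lower. The same array was the highest of all cerebella for the microglial (6.98), astroglial (9.46) and Purkinje cell (8.99) lists. It was not the highest for the endothelial, granule progenitor or granule neuron lists. The part of any of these cell types in the value was not tested. In CGNP *Ptgds* was at 5.68, 6.22 and 6.09 with SGC0946, against 6.07, 6.15 and 6.69 with DMSO, with a change of -0.30 (95% interval -0.90 to 0.30) and overlap. In CGN it was at 6.34 and 7.30 with SGC0946, against 6.62 and 7.35 with DMSO, so that arrays of 1 treatment differed more than the treatments did.

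*Slco2a1*, the prostaglandin transporter, was the only gene of the 8 whose cKO arrays all lay above the control arrays. It read 7.44, 8.03 and 7.23 in cKO, against 7.21, 7.16 and 7.21 in control. The lowest cKO array exceeded the highest control array by only 0.03, and the 3 control arrays spanned only 0.05. The change was 0.38 (95% interval -0.06 to 0.82; limma, adjusted p = 0.634), with 0.15 without cKO replicate 2. In brain this transporter is known from endothelium, whose markers averaged 7.18, 7.16 and 6.80 in cKO, against 7.23, 6.77 and 6.96 in control. That list overlapped, with 6 of 12 markers higher and 6 lower by mean (median 0.02). All 15 pericyte, smooth muscle and meningeal markers had a higher mean in cKO (median 0.21), as did 11 of 12 microglial markers (median 0.32). The same held for 10 of 11 oligodendrocyte lineage markers (median 0.29) and 9 of 12 astroglial markers (median 0.10). By contrast, 10 of 12 granule progenitor markers had a lower mean (median -0.35). Their part in the value of *Slco2a1* was not tested. In CGNP it was at 5.73, 5.94 and 5.72 with SGC0946, against 5.71, 5.77 and 5.82 with DMSO, a change of 0.03 (95% interval -0.32 to 0.39). In CGN it was at 5.31 and 5.11 with SGC0946, against 5.04 and 4.94 with DMSO, without overlap and with a difference of 0.22 (SE 0.20) on a low signal.

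*Ptgr1*, which reduces 15-keto prostaglandins and also oxidises leukotriene B4, had a higher mean in cKO than in control and with SGC0946 than with DMSO in both cultures, each time with overlap. Its change was 0.18 in cKO (95% interval -0.28 to 0.65), 0.18 in CGNP (-0.20 to 0.56) and 0.24 in CGN. Leaving out 1 array at a time gave 0.07 (without cKO replicate 1) to 0.35 (without cKO replicate 3) in cKO, 0.09 to 0.24 in CGNP, and 0.014 (without HB3) to 0.47 (without HB1) in CGN. In CGNP the difference was largest in the culture of mouse 30 (0.56), beside 0.03 for mouse 29 and -0.05 for the mixed culture. In CGN, where *Hpgd* was lower, *Ptgr1* read 4.79 and 4.86 with SGC0946, against 4.81 and 4.36 with DMSO.

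The 8 genes were also set side by side in CGN and CGNP, both in DMSO. The 2 experiments appear to have been normalized apart and the CGN arrays are those set against SGC0946 above, so that these differences are given without a test. The 8 genes had a median difference of -0.52, and all genes one of -0.23. Regardless of sign, the median size was 0.63 for the 8 genes and 0.33 for all genes. Of 12 granule progenitor markers, 10 had a lower mean in CGN (median -1.08). *Ptges2* was the only 1 of 8 that differed at least 2-fold without overlap (13.9% of all genes did), with 4.52 and 5.37 in CGN, against 6.51, 6.65 and 6.65 in CGNP, a difference of -1.66 (3.16-fold lower). *Ptgr1* (-0.82), *Slco2a1* (-0.78), *Ptges3* (-0.58) and *Ptgs2* (-0.46) were also lower in CGN without overlap, and *Ptgds* was higher by mean (0.69) with overlap. These make 5 of 8 genes without overlap, beside 64.6% of all genes. *Hpgd* differed by -0.17 with overlap, and by 0.33 after a further quantile normalization of all culture arrays.

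Of 55 further genes of the pathway listed, 50 were measured, and none passed the adjusted test in cKO or in CGNP (limma). At a p of 0.05 or less without adjustment there were 7 (14%) in cKO and 2 (4%) in CGNP, beside 8.69% and 4.08% of all genes. Arrays did not overlap for 8 (16%) in cKO, 4 (8%) in CGNP and 21 (42%) in CGN, beside 14.0%, 9.78% and 34.1% of all genes. These 50 genes had median changes of 0.02 (cKO), 0.01 (CGNP) and -0.04 (CGN).

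Of the 17 measured genes that release arachidonate or return it to lipids, 1 did not overlap in CGNP (9.78% of all genes). This was *Acsl4*, the ligase that couples arachidonate to coenzyme A. It read 9.66, 9.70 and 9.58 with SGC0946, against 9.15, 9.02 and 9.07 with DMSO. The change was 0.57 (SE 0.11; limma, adjusted p = 0.153). In cerebella the sign was opposite, with 8.80, 8.87 and 9.10 in cKO, against 9.22, 9.31 and 9.12 in control, a change of -0.29 (limma, adjusted p = 0.548). The lowest control array and the highest cKO array lay 0.01 apart. The 2 responses differed by 0.86 (SE 0.16; limma on all 6 groups, adjusted p = 0.0488), in a comparison added after the values were seen, in which 0.0631% of all genes passed. This call was lost in 13 of the 16 other settings tried for this gene (adjusted p 0.0307 to 0.203). In CGN *Acsl4* was at 9.36 and 9.21 with SGC0946, against 8.83 and 8.67 with DMSO. *Pla2g4a*, the cytosolic phospholipase A2 that frees arachidonate, was at 4.92 and 5.24 with SGC0946 in CGN, against 4.30 and 4.69 with DMSO, and *Daglb*, a diacylglycerol lipase, at 7.13 and 7.42, against 7.67 and 7.83. In cKO *Lpcat3*, which puts arachidonate into phospholipids, differed by 0.24 without overlap (limma, adjusted p = 0.603).

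Of the 5 measured genes for further export and inactivation, *Zadh2*, a prostaglandin reductase, was at 8.33, 8.27 and 8.39 in cKO, against 8.76, 8.77 and 8.65 in control. The groups did not overlap, with a change of -0.40 (limma, adjusted p = 0.41) that did not pass the test over all genes. In CGN it read 5.58 and 5.31 with SGC0946, against 5.13 and 4.94 with DMSO, and *Ptgr2*, its relative with the same kind of substrate, 6.98 and 7.28, against 6.27 and 6.83. Neither gene overlapped between the CGN treatments, as 34.1% of all genes did not, whereas *Ptgr1* did.

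The 6 other prostanoid synthases and the 7 receptors measured gave small differences on mostly low signals. *Hpgds*, the hematopoietic prostaglandin D synthase, differed by 0.29 in CGNP (limma, adjusted p = 1), *Ptgis*, the prostacyclin synthase, by -0.32 in cKO (limma, adjusted p = 0.617), and *Tbxas1*, the thromboxane synthase, by 0.21 in CGN. Of the receptors, *Ptger2* differed by -0.17 in cKO (limma, adjusted p = 0.543) and *Tbxa2r* by 0.24 in CGNP (limma, adjusted p = 1). In CGN *Ptgfr* (-0.24), *Ptgdr* (-0.14) and *Ptger4* (-0.11) did not overlap. Of the 15 lipoxygenase and leukotriene genes, *Cysltr1*, a receptor of cysteinyl leukotrienes, read in cKO 4.51, 4.35 and 4.59, against 4.05, 3.99 and 4.25 in control (0.38; limma, adjusted p = 0.394). *Alox15*, a 12/15-lipoxygenase, differed by -0.38 (limma, adjusted p = 0.394) and *Alox12e* by -0.28 (limma, adjusted p = 0.569). In CGNP *Alox8* differed by 0.24 (limma, adjusted p = 1), and in CGN *Ltc4s* by 0.37, *Ggt5* by -0.27 and *Alox12e* by 0.25. In the comparisons named, these lipoxygenase and leukotriene genes were dim, with every signal below the median of all clusters on the arrays.

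**Figure D4:**
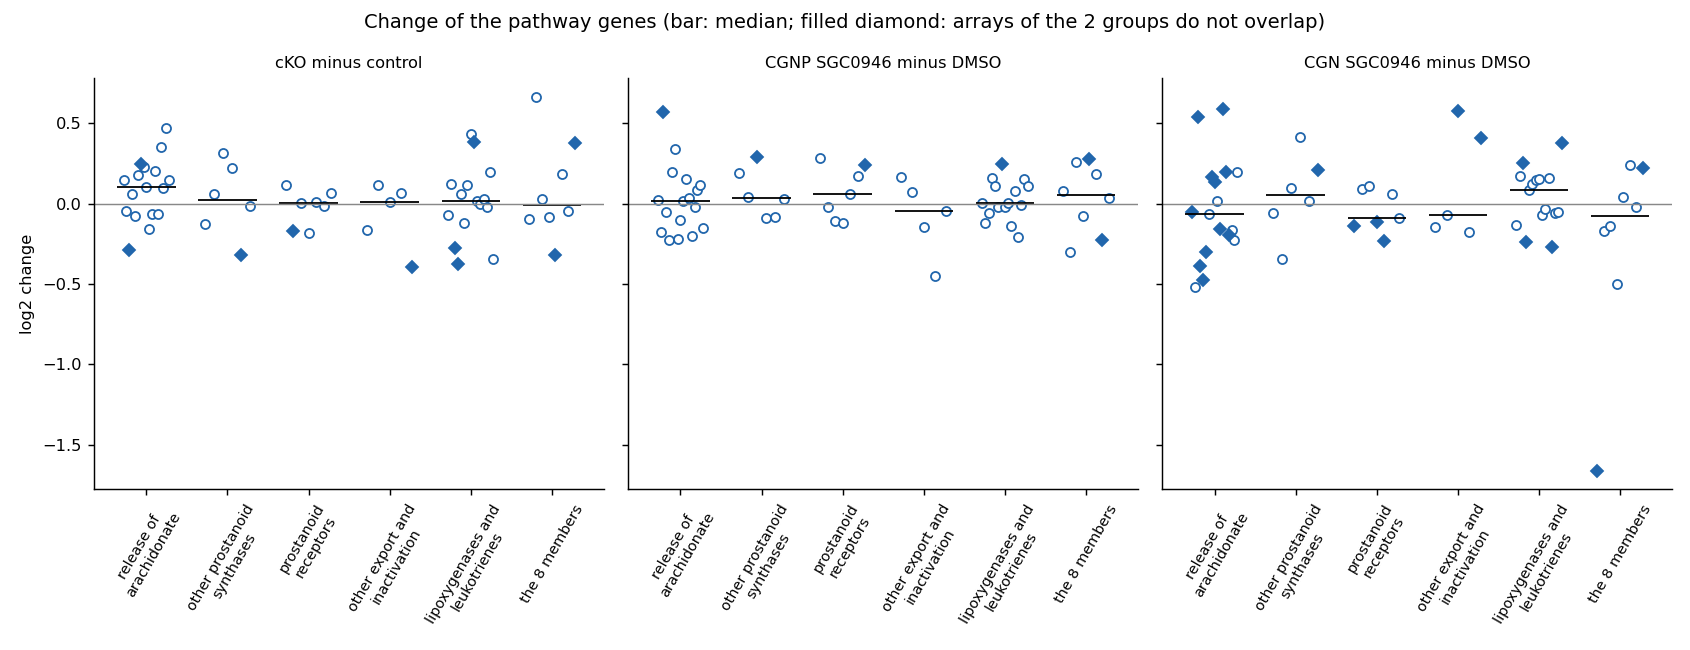
Log2 change (vertical axis) of the 50 further pathway genes, by list, and of the 8 measured prostaglandin genes (horizontal axis) in the 3 comparisons. Points are genes, bars medians, and filled diamonds genes whose arrays do not overlap between groups; list medians lie between -0.09 and 0.10, and *Hpgd* in CGN (-1.66) lies far below every other point.

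Which genes ran most like *Hpgd* was read from Pearson's r over the 16 arrays after each experiment was centred, as a description that rests largely on the 4 CGN arrays. The 5 highest were *Scube3* (0.92), *Gm10400* (0.92), *St8sia2* (0.92), *Gm3257* (0.91) and *Sowahb* (0.89). *Scube3* encodes a secreted signalling protein and *St8sia2* a polysialyltransferase of the neural cell adhesion molecule. Their changes in CGN with SGC0946 were -0.76, -1.11, -0.58, -0.71 and -1.42 in the order named. Over the 12 arrays without CGN the same coefficients were 0.64, 0.53, 0.77, 0.51 and 0.63. These 12 are among the 16 arrays on which the 5 genes were picked, so these values are no independent check. Of the other 7 prostaglandin genes, *Ptges2* came nearest (0.49) and *Ptgr1* was farthest (-0.33) over the 16 arrays. Without the CGN arrays the order changed, with *Ptges* nearest (0.40) and *Ptgds* farthest (-0.81), while *Ptges2* was at 0.31 and *Ptgr1* at -0.39. A single animal, cKO replicate 1, was the lowest cerebellum for *Hpgd* (6.30) and the highest for *Ptgds* (10.66). The coefficient of *Ptgds* without this animal was not computed, so no inverse relation is read from it.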

How the data were processed

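The deposited values are log2 signals of 18 arrays, which the authors obtained in Partek by RMA with adjustment for probe sequence and GC content, quantile normalization and median polish. Partek version and genome build: not given in the sources used here. Deposited tables of the authors' own fold changes and p-values were not used. Arrays of 1 experiment share nearly the same signal distribution, while the 3 experiments do not. Of 34472 clusters, 23521 have a single symbol, 1820 more than one and 9131 no listed symbol. A gene was represented by its brightest cluster (22180 genes, 1082 with more than one). limma 3.58.1 in R 4.3.3 (lmFit, eBayes with an intensity trend) was fitted to the 6 cerebella and, apart, to 10 culture arrays, with Benjamini-Hochberg adjustment over all genes and a threshold of 0.05, and was checked on simulated data. The p-values set a difference against the spread between arrays within groups, whose number limits the precision. For CGNP this spread is pooled over all 10 culture arrays, CGN included. The CGNP cultures came from 2 mice, so it is not a spread between independent animals.

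Per the labels, CGNP cultures share mice across treatments, but their deviations from the group means correlated at only 0.01, 0.04 and 0.01, and the fit without the block is reported. Genes and lists were chosen with earlier results of these data known. Named were all members, pathway genes past the adjusted test, up to 3 per list and contrast with the largest change without overlap, the 2 most changed of a marker list, and the 5 genes most like *Hpgd*. Alternatives were other scalings, mean clusters, a filter on dim genes, other variance estimates, the CGNP arrays alone, a culture block and leaving out each array.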

Additional observations from a re-analysis of the deposited data

Results flagged for a closer look

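For *Ptges3* the mean changes had opposite signs in CGNP and in cerebella, with all 3 inhibitor arrays above all DMSO arrays in CGNP and all 3 cKO arrays below all control arrays. Neither change passed the test, and the CGNP response to SGC0946 minus the cKO response, 0.60 (SE 0.21; limma, adjusted p = 0.641), was fitted after these values had been seen and did not pass either.

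For *Acsl4* the same difference, also added after the values were seen, was 0.86 (SE 0.16; limma, adjusted p = 0.0488). It was no longer called in 13 of the 16 other settings tried (adjusted p 0.0307 to 0.203). The CGNP cultures and the cerebella differ in strain, age, tissue, and the means and duration of interference with DOT1L, which cannot be told apart.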

How the results depend on the processing

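For the 8 genes 0 passed the adjusted test in cKO or CGNP under every alternative run. The number of all genes past it in cKO was 5, with 3 without the intensity trend, 0 with ordinary variance and 1 to 12 when an array was left out (12 without cKO replicate 1). In CGNP it was 7, with 11 after further quantile normalization, 13 without genes below the median signal, 1 without the trend, 0 with ordinary variance, 16 from the 6 CGNP arrays alone, 10 with culture as a replicate block in those 6 arrays (where *Hpgd* had an adjusted p of 0.988), and 0 to 7 when an array was left out (0 without DMSO replicate 2). The block changed no call of the 8 genes. *Hpgd* in CGN stayed between -1.86 and -1.46 under all alternatives, with -1.74 after further quantile normalization.

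Leaving out an array turned the sign of several untested or uncalled changes, and moved *Slco2a1* in cKO between 0.15 (without cKO replicate 2) and 0.54 (without cKO replicate 3). In cKO these ranged from -0.22 to 0.10 for *Hpgd*, -0.10 to 0.0017 for *Ptgs2*, -0.31 to 0.31 for *Ptges*, -0.26 to 0.040 for *Ptges2* and -0.11 to 1.17 for *Ptgds*, in CGNP from -0.040 to 0.070 for *Slco2a1*. In CGN they ranged from -0.65 to 0.31 for *Ptgds*, -0.45 to 0.17 for *Ptges*, -0.17 to 0.12 for *Ptgs2* and -0.02 to 0.10 for *Ptges3*. Between CGN and CGNP in DMSO, *Ptges2* ranged from -2.08 to -1.24, and *Slco2a1* was at -0.68 with array medians subtracted and -0.69 after quantile normalization, which also gave -0.27 for *Ptges3* (0.13 for the inhibitor in CGN). The cause was not tested. The filter on dim genes removed *Ptgs2* and *Ptges* in cerebella and *Ptges* in the cultures. For *Acsl4* the difference between responses stayed between 0.80 and 0.95 without single arrays. With 2 arrays a group in CGN, no change there can be checked beyond these ranges.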

Other observations

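The 2 CGN arrays whose title and description name opposite treatments gave these log2 signals. HB2, titled as DMSO and described as SGC0946, read 8.44 for *Hpgd*, 4.76 for *Ptgs2*, 4.79 for *Ptges*, 4.39 for *Ptges2*, 6.39 for *Ptges3*, 6.33 for *Ptgds*, 4.84 for *Ptgr1* and 4.99 for *Slco2a1*. HB5, titled as SGC0946 and described as DMSO, read 6.92 for *Hpgd*, 5.05 for *Ptgs2*, 4.86 for *Ptges*, 5.16 for *Ptges2*, 6.84 for *Ptges3*, 6.86 for *Ptgds*, 5.03 for *Ptgr1* and 5.42 for *Slco2a1*. For *Hpgd*, HB2 lay above both CGN arrays with DMSO (8.28 and 7.96) and HB5 between the CGN arrays with SGC0946 (6.26 and 6.66) and those with DMSO. Their labelled days in vitro (3 for HB2 and 6 for HB5) continue the run of days in array order, which disagrees with the single 44 h schedule, and no order by time is read from them.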
